A study of Mus musculus with 9 samples.

Results

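The genes described here build and run the lysosome: the subunits of the vacuolar proton pump (V-ATPase), the cathepsins and other acid hydrolases, the proteins of the lysosomal membrane, and the transcription factors Tfeb and Tfe3. They were chosen by symbol, as every gene whose name starts with Atp6v0 or Atp6v1 or is Atp6ap1 or Atp6ap2 (25 genes in all) together with 27 genes from a written list, which gave 52 of the 21939 genes in the table. Of these, 13 are named as V1 subunits and 9 as V0 subunits, 2 as V-ATPase accessory proteins, 8 as cathepsins, 9 as other luminal hydrolases, 2 as soluble cofactors or carriers, 6 as membrane proteins and 2 as transcription factors. The remaining match, Atp6v1fnb, is named for its neighbour Atp6v1f, is not a pump subunit and had 0 counts in every library. The rule itself uses no measured value.

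RNA sequencing was performed on long-term haematopoietic stem cells (LT-HSCs) isolated from C57BL/6 mouse bone marrow, in 3 groups of 3 libraries. The aged+Ri group held cells of mice older than 80 weeks exposed to 100 µM Rhosin, a small-molecule inhibitor of the GTPase RhoA. The aged group held cells of mice of the same age without the inhibitor, and the young group held cells of mice aged 10 to 16 weeks, also without it. Cells of all groups spent 16 h in a salt solution with 10% serum at 3% oxygen and 5% CO2 before RNA was taken, so no group gives the state of cells straight from the marrow. Young cells with Rhosin were not analysed here.

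The V-ATPase hydrolyses ATP in its cytosolic V1 sector and moves protons through its membrane-embedded V0 sector, and the acid it makes is what cathepsins and other lysosomal hydrolases need to work. Many lysosomal genes carry E-box-like sites to which TFEB and TFE3 bind, and the kinase complex mTORC1 holds both factors in the cytoplasm when nutrients are plentiful. Quiescent LT-HSCs are known to hold many lysosomes, and lysosomal activity is linked to their quiescence.

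The promoters of the genes were searched for such sites. RefSeq promoters (GRCm38.p6) were matched for 42 of the 52 genes, and the 250 bases before each annotated start were searched for the E-box CACGTG, which reads the same on both strands. At least 1 E-box was present in 10 of the 42 genes (23.8%), against 1854 of 27025 genes with a promoter in the table (6.86%). The longer form TCACGTGA, which contains the E-box and also reads the same on both strands, was present in 5 of the 42 (11.9%), namely Atp6v1a, Ctsa, Ctsd, Gla and Mcoln1, against 245 of all genes (0.907%). A match is a string of letters and not evidence that a factor binds there.

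The 150 bases before the start are given for 4 genes with E-boxes and for Ctsc, the gene with the smallest p in any comparison, which has none. Sequences run 5′ to 3′ on the gene's strand, and capitals mark CACGTG or TCACGTGA.
Lamp1, chr8:13159011-13159160, plus strand: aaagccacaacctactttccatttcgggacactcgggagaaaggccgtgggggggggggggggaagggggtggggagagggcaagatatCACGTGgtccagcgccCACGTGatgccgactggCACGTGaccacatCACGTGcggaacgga
Mcoln1, chr8:3500369-3500518, plus strand: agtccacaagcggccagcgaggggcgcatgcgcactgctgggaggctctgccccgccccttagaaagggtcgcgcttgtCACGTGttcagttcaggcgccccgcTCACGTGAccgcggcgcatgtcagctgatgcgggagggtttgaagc
Atp6v0b, chr4:117887330-117887479, minus strand: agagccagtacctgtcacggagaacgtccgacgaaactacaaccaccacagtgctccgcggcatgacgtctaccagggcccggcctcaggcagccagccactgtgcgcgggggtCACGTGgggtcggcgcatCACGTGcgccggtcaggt
Ctsd, chr7:142387828-142387977, minus strand: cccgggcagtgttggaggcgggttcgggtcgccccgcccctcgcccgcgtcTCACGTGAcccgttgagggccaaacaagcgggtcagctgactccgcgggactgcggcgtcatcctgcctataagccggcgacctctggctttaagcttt
Ctsc, chr7:88277935-88278084, plus strand: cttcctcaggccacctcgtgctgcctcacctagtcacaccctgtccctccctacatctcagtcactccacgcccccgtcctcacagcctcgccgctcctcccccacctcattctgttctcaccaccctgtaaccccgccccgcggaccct
Lamp1, a major glycoprotein of the lysosomal membrane, held 4 E-boxes, with first bases 61, 45, 28 and 15 bases before the start. Mcoln1, the lysosomal calcium channel, held 2, at 71 and 45 bases, and Atp6v0b, a subunit of the proton-carrying ring, held 2, at 36 and 18 bases. Ctsd, the aspartic protease cathepsin D, held 1 at 98 bases within the printed stretch and another at 245 bases. Gla also held 2, and Atp6v1a, Ctsa, Ctsl, Gaa and Glb1 held 1 each.

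**Figure D1:**
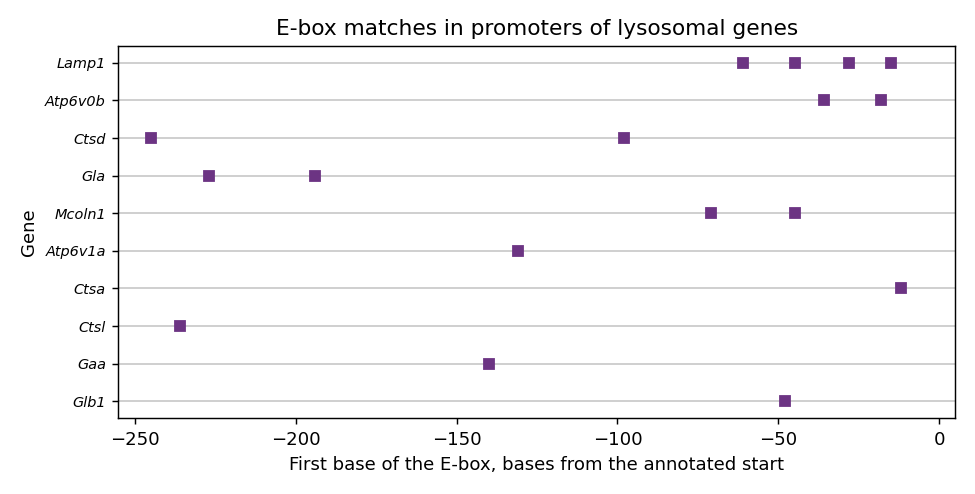
Position of each E-box (CACGTG) in the 250 bases before the annotated start of the 10 lysosomal genes that hold one, with genes on the vertical axis and bases from the start on the horizontal axis. The 4 squares of Lamp1 lie within 61 bases of the start, while those of Gla and Ctsl lie farther away.

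Library totals were between 34358101 and 72503142 counts, at which 3 counts correspond to between 0.0414 and 0.0873 CPM, the count scaled to a common library size by TMM. Young libraries stood apart: 15117 to 16333 genes had a count in aged+Ri and 15024 to 17987 in aged, against 20129 to 21213 in young. Mitochondrially encoded genes took 2.006 ± 0.507% of counts in aged+Ri and 2.94 ± 0.522% in aged, against 4.43 ± 0.273% in young (SD, n = 3 each). Markers of LT-HSCs were detected in every library, with a summed level of 1196 to 1966 CPM in aged+Ri, 1710 to 2284 CPM in aged and 1658 to 2889 CPM in young. Of the 10, 3 had a higher and 7 a lower fitted level in aged+Ri than in aged. Procr had 409, 181 and 217 CPM in aged+Ri and 144.5, 80.9 and 76.4 CPM in aged. Slamf1 had 0.56, 12.1 and 1.04 CPM in aged+Ri, 8.37, 14.5 and 35.7 CPM in aged and 15.4, 3.24 and 0.941 CPM in young. Neutrophil and monocyte markers summed to 98.8 to 186 CPM in aged+Ri, 715 to 10910 CPM in aged and 1455 to 4114 CPM in young, and in aged+Ri all 16 tested markers had a lower fitted level than in aged. Macrophage and dendritic cell markers summed to 194 to 272 CPM in aged+Ri, 157 to 1286 CPM in aged and 102 to 221 CPM in young. Among them, Cd74 had 60.9, 106 and 84.2 CPM in aged+Ri, 22.4, 271 and 705 CPM in aged and 98.4, 15.5 and 21.6 CPM in young. H2-Ab1 had 52.2, 47.25 and 53.5 CPM, 49.1, 89.8 and 228.5 CPM, and 9.10, 18.0 and 56.3 CPM in those groups. C1qa was at 0 in every aged+Ri and aged library and reached at most 0.257 CPM in young. Summed levels in aged+Ri, aged and young were 63.8 to 132 CPM, 156 to 403 CPM and 144 to 265 CPM for mast cell and basophil markers, and 72.3 to 137 CPM, 107 to 756 CPM and 232 to 13530 CPM for T, NK and B cell markers, where the immunoglobulin gene Iglc2 alone gave 13370 CPM in young 1. Of the mast cell and basophil sum, Gata2 alone gave 62.1, 132 and 63.2 CPM in aged+Ri. It gave 216, 107 and 129 CPM in aged and 163, 216 and 46.9 CPM in young. In the same order of groups, summed levels were 24.2 to 189 CPM, 243 to 541 CPM and 110 to 284 CPM for megakaryocyte markers, 446 to 923 CPM, 12.4 to 50.9 CPM and 31.0 to 533 CPM for erythroid markers, and 16.4 to 36.7 CPM, 102 to 349 CPM and 122 to 353 CPM for markers of progenitors outside the sorting gate. Of these genes, 3 neutrophil and monocyte markers, 5 mitochondrially encoded genes and 1 LT-HSC marker passed the test between aged+Ri and young, and none passed in the other comparisons. The part that such differences play in the levels below was not tested, and in bulk samples fewer cells of a type and less RNA per cell cannot be told apart.

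The 52 genes together took 1.09, 1.40 and 1.26% of all counts in the aged+Ri libraries, 1.34, 1.198 and 1.43% in the aged libraries, and 0.961, 0.911 and 1.09% in the young libraries. The aged share was above the young share in every library, and the lowest aged+Ri library lay just below the highest young one. Of the 52, 47 passed edgeR's filter on low counts. The 5 that did not pass were Atp6v0d2, Atp6v1c2, Atp6v1e2, Atp6v1g3 and Atp6v1fnb. The group mean of log2(CPM + 0.5) was highest in aged+Ri for 22 of the 47, and a pseudocount of 2 gave the same number. The share over all genes tested is not given here, so this count is a description only.

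For each comparison, edgeR's quasi-likelihood F-test was run on 15127 genes and its p adjusted over all of them (Benjamini-Hochberg). The comparisons share libraries, so their values are given side by side and are not independent. Between aged+Ri and aged, 0 of the 47 tested genes passed an adjusted p of 0.05, and 0% of all genes did. At an unadjusted p of 0.05, 4 of the 47 differed (background 9.14%), 1 higher in aged+Ri (background 4.24%) and 3 lower (background 4.89%). DESeq2 called 1 of the 47 (background 2.12%), limma-voom 0 (background 0.364%) and edgeR's newer method 0 (background 0.0264%). Groups did not overlap for 12 of the 47, with 7 higher in aged+Ri (14.9%, against 7.87% of all genes) and 5 lower (10.6%, against 8.66%). The median log2 change was 0.06 for the 47 genes and −0.06 for all genes tested.

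Between aged and young, 0 of the 47 passed (background 0.0331%). At an unadjusted p of 0.05, 10 differed (background 16.2%), 7 higher in aged (background 6.09%) and 3 lower (background 10.1%). DESeq2 called 2 (background 4.92%), limma-voom 0 (background 0.119%) and edgeR's newer method 0 (background 0.139%). All 3 libraries of aged lay above all 3 of young for 8 genes (17.0%, against 8.58% of all genes) and below for 4 (8.51%, against 16.1%). The median log2 change was 0.28, against −0.13 for all genes tested. Restricted to genes with a mean of at least 5 CPM, the medians were 0.37 over 43 lysosomal genes and 0.02 over 9750 genes.

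Between aged+Ri and young, a comparison that uses the same libraries again, 1 of the 47 passed, Ctsc (2.13%, against 1.45% of all genes). At an unadjusted p of 0.05, 18 differed (background 23.4%), 12 higher in aged+Ri (background 9.06%) and 6 lower (background 14.4%). DESeq2 called 8 (background 12.1%), limma-voom 2 (background 4.26%) and edgeR's newer method 1 (background 2.81%). Groups did not overlap for 14 higher genes (29.8%, against 12.4% of all genes) and for 6 lower ones (12.8%, against 19.9%). The median log2 change was 0.38, against −0.24 for all genes tested, and at a mean of at least 5 CPM it was 0.45 over 43 genes, against −0.02. The number of genes with a count and the mitochondrial share, given above, also did not overlap between these groups (exact two-sided permutation p = 0.1 for each, the smallest that 3 against 3 libraries can give, and 0.12 adjusted over 6 tests), and their part in these counts was not tested.

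**Figure D2:**
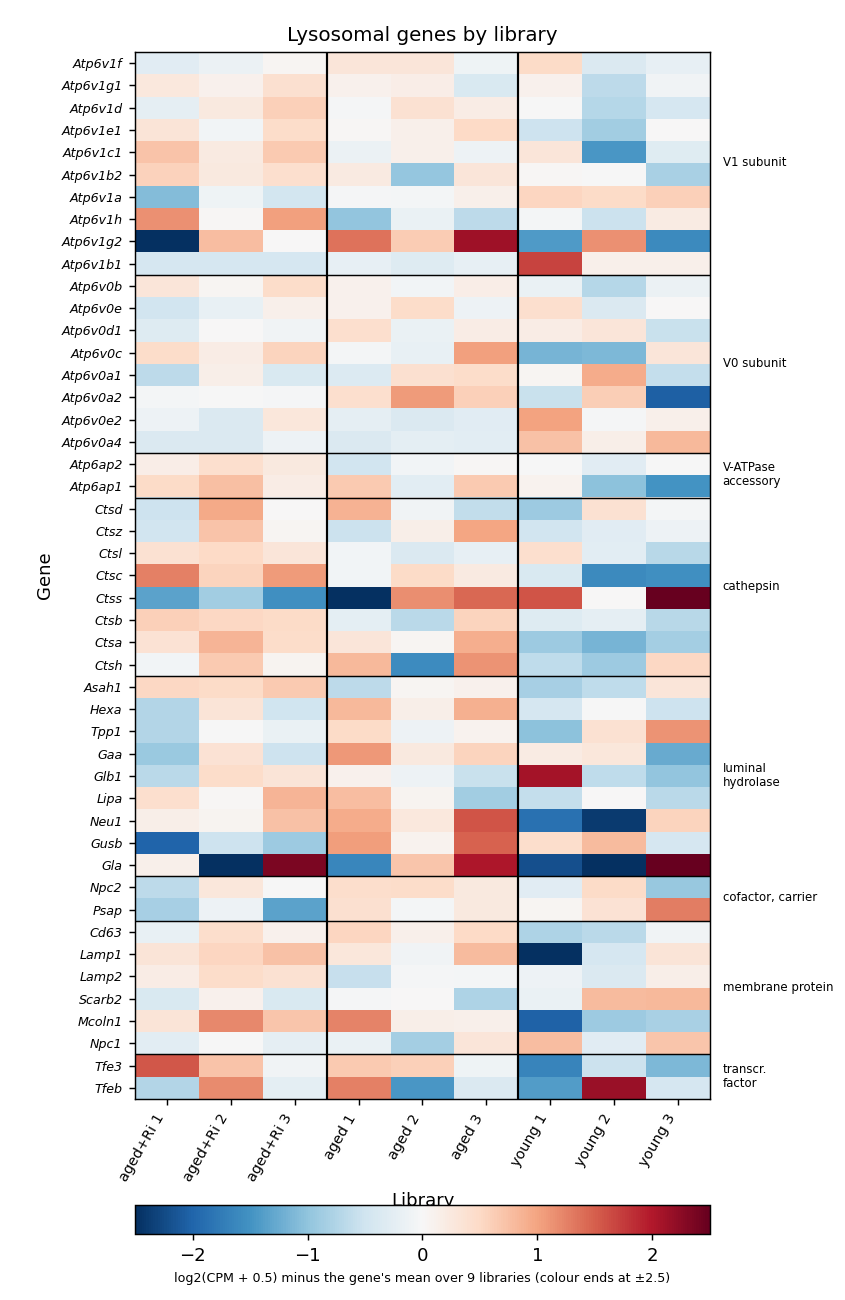
Level of the 47 tested lysosomal genes in each of the 9 libraries, as log2(CPM + 0.5) minus the gene's mean over all libraries, with genes grouped by role down the page and libraries in columns (red, above the gene's mean; blue, below). Ctsc is highest in the aged+Ri columns and lowest in the young columns, while Atp6v1a runs the other way.

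Levels can be set against each other only per length, here as CPM per kb of exon. Pump subunits and Cd63 had the highest levels. Atp6v1g1, a subunit of the pump's peripheral stalks, stood at 1089 CPM per kb in aged+Ri, 897 in aged and 804 in young, and Atp6v1f, a subunit of the central stalk, at 840.4, 1036 and 925 in the same groups. Cd63, a tetraspanin of late endosomes and lysosomes, stood at 798 CPM per kb in aged+Ri, 955 in aged and 522 in young. The best expressed protease was Ctsd, at 159.7, 151 and 123 CPM per kb in aged+Ri, aged and young. The transcription factors were low, with Tfe3 at 1.47, 1.05 and 0.349 CPM per kb and Tfeb at 0.525, 0.495 and 0.831, all under the median of 2.62 CPM per kb over the genes tested. Among the tested lysosomal genes, Atp6v0e2, Atp6v1b1 and Atp6v0a4 were lower still, averaging 0.0842, 0.0587 and 0.0346 CPM per kb over the groups.

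Where a pump subunit is encoded by several genes, the levels per length separated a broadly expressed form from tissue-specific ones. For subunit B, Atp6v1b2 had 32.0 CPM per kb in aged+Ri, 23.2 in aged and 20.5 in young, against 0, 0.0150 and 0.161 for Atp6v1b1, the form known from kidney and inner ear. For subunit C, Atp6v1c1 had 52.5, 34.8 and 28.7 CPM per kb in those groups, and Atp6v1c2 had 0, 0.00973 and 0.0683. For subunit d of V0, Atp6v0d1 had 107, 132 and 119 CPM per kb. Atp6v0d2, the form known from osteoclasts and macrophages, had 2 counts over the 3 aged+Ri libraries, 4 over the aged libraries and 296 over the young libraries, of which 283 were in young 3 alone. No form of subunit a reached the level of Atp6v0d1 or of the ring proteins: Atp6v0a1 had 1.68, 2.36 and 2.44 CPM per kb in aged+Ri, aged and young, Atp6v0a2 had 1.66, 2.86 and 1.38, and Tcirg1, which encodes the a3 form and is not among the 52, had 1.35, 2.06 and 4.41. Atp6v1g3, a rarely read form of subunit G, had 4 counts over the aged+Ri libraries, 2 over the aged libraries and 5 over the young libraries.

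**Figure D3:**
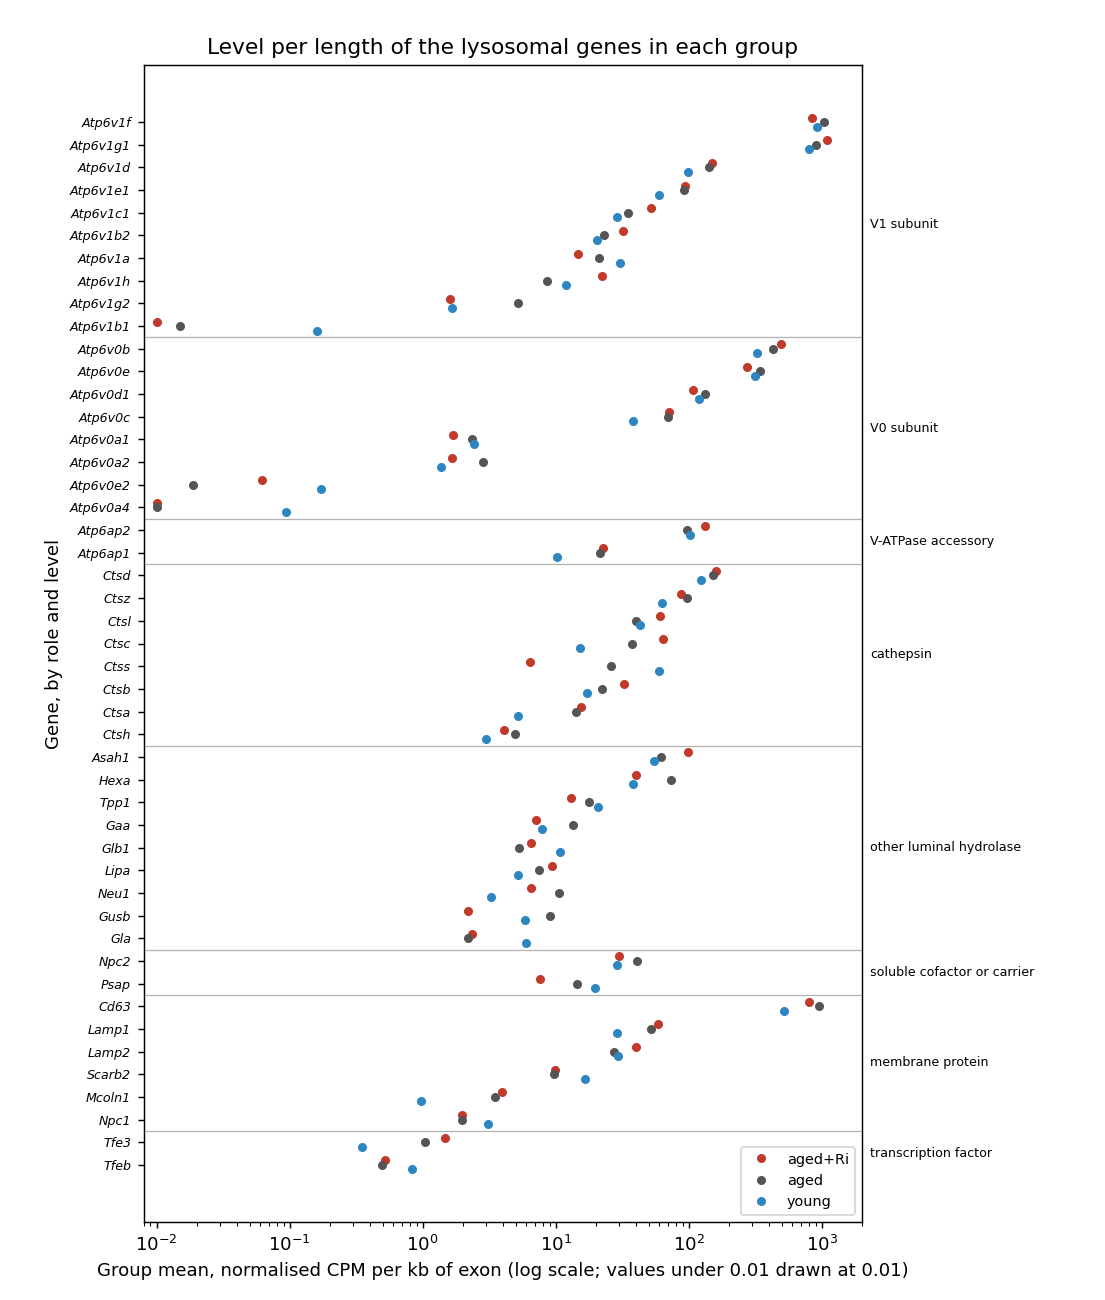
Group mean level of the 47 tested lysosomal genes in normalised CPM per kb of exon on a log axis, with genes by role and level down the page and a dot for each of aged+Ri, aged and young (values under 0.01 are drawn at 0.01). Most dots of a gene lie close together, and the pump subunits Atp6v1b1, Atp6v0a4 and Atp6v0e2 lie far to the left of the broadly expressed ones.

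Among V1 subunits, Atp6v1h had the smallest p between aged+Ri and aged. It encodes subunit H, which regulates ATP hydrolysis by the pump (chr1:5070018-5162529, plus strand). Its level was 273, 126 and 252 CPM in the 3 aged+Ri libraries, against 62.5, 109 and 78.3 CPM in the aged libraries. Every aged+Ri library was above every aged library, and aged+Ri 2 was the nearest to them. The log2 change was 1.38 ± 0.38 (SE) with an adjusted p of 0.335, so it did not pass over all genes. Within sequencing batch 1 the difference was 2.12 and within batch 2 it was 0.70 on the log2 scale. Young libraries had 119.5, 84.9 and 142 CPM, overlapping both other groups. The gene shares 127 exon bases with Rgs20 on the other strand, and no source used here says whether reads were counted by strand.

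Atp6v1a, the catalytic subunit that binds ATP, was ordered the other way. It had 59.5, 117 and 91.7 CPM in aged+Ri, 124, 122 and 138 CPM in aged and 185, 175 and 191 CPM in young. No aged+Ri library reached the lowest aged one and no aged library reached the lowest young one, although aged+Ri 2 came close to the aged level. On the log2 scale the change was −0.52 ± 0.31 for aged+Ri against aged (adjusted p = 0.675), −0.52 ± 0.31 for aged against young (adjusted p = 0.421) and −1.04 ± 0.32 for aged+Ri against young (adjusted p = 0.0957, edgeR). None passed in edgeR's test. Atp6v1b2, its partner in the ATP-hydrolysing ring, had 169.8 ± 19.2 CPM in aged+Ri, 123 ± 50.8 CPM in aged and 109 ± 32.3 CPM in young, so the subunits of that ring were not ordered alike. Atp6v1b1 had 0 counts over the aged+Ri libraries, 13 over the aged libraries and 99 over the young libraries, of which 82 were in young 1 alone. Taking 3 counts over the group as the floor, it was at least 2.92-fold lower in aged+Ri than in aged and at least 34.4-fold lower than in young (edgeR's adjusted p = 0.471 and 0.0675). These bounds pool the libraries of a group and cover counting error only.

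Other V1 subunits form the stalks that hold the catalytic ring and turn the rotor. Atp6v1e1 had 407, 310.5 and 445 CPM in aged+Ri, 329, 357 and 458 CPM in aged and 227, 177 and 327 CPM in young. The aged libraries just cleared the highest young one, with a log2 change of 0.65 ± 0.30 and an adjusted p of 0.312. Atp6v1c1, which joins the stalks to V0, had 329, 236 and 317 CPM in aged+Ri and 182, 219.7 and 183 CPM in aged, with no overlap, and 248, 72.7 and 162 CPM in young, where the libraries were far apart. Its log2 change was 0.59 ± 0.39 between aged+Ri and aged (adjusted p = 0.706). Atp6v1d, Atp6v1f and Atp6v1g1 had log2 changes of 0.06, −0.30 and 0.28 between aged+Ri and aged and of 0.54, 0.16 and 0.16 between aged and young. Atp6v1g2, a form of subunit G known from neurons, ranged from 0.0842 CPM in aged+Ri 1 to 20.2 CPM in aged 3.

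Among V0 subunits the ring protein Atp6v0b had 1030, 865 and 1148 CPM in aged+Ri, 902, 792 and 938 CPM in aged and 740.3, 510.4 and 750.3 CPM in young. Each aged library and each aged+Ri library was above all young ones. The fitted log2 change was 0.40 ± 0.25 for aged against young and 0.60 ± 0.25 for aged+Ri against young, with edgeR's adjusted p of 0.446 and 0.176. Atp6v0c, the main ring protein, had 248, 206 and 265 CPM in aged+Ri, 176, 158 and 371 CPM in aged and 81.1, 82.3 and 223 CPM in young, so that aged 3 and young 3 stood above the others of their groups. Its log2 change between aged and young was 0.87 ± 0.44 (adjusted p = 0.344). Atp6v0a2 had 11.01, 11.3 and 11.2 CPM in aged+Ri, below each of the aged libraries at 15.6, 24.6 and 17.6 CPM, and 7.62, 17.8 and 2.40 CPM in young (log2 change −0.78 ± 0.76 between aged+Ri and aged, adjusted p = 0.851). Atp6v0d1 and Atp6v0e had log2 changes of −0.30 and −0.33 between aged+Ri and aged and of 0.14 and 0.11 between aged and young.

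The low V0 genes had their counts mainly in young. Atp6v0a4, known from kidney, had 3 counts over the aged+Ri libraries, 4 over the aged libraries and 58 over the young libraries, a ratio of 0.0496 between aged+Ri and young (exact Poisson 95% interval 0.00995 to 0.152, counting error only). Atp6v0e2 had 0.112, 0.0173 and 0.311 CPM in aged+Ri, 0.0683, 0.0181 and 0.0477 CPM in aged and 0.849, 0.153 and 0.228 CPM in young. Every young library was above every aged one. For these genes edgeR's adjusted p between aged and young was 0.249 and 0.293.

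The accessory protein Atp6ap1 (Ac45), which guides the pump along the secretory pathway, had 68.6, 82.5 and 55.7 CPM in aged+Ri, 77.3, 40.6 and 77.8 CPM in aged and 52.2, 23.9 and 17.1 CPM in young. All aged+Ri libraries were above the young ones, while aged 2 fell below young 1. The model gave a log2 change of 1.07 ± 0.48 between aged and young and 1.15 ± 0.48 between aged+Ri and young (adjusted p = 0.288 and 0.174, edgeR). Atp6ap2, also known as the prorenin receptor, had 319, 383 and 335 CPM in aged+Ri, above 203, 273 and 291 CPM in aged and 281, 233 and 282 CPM in young. Its log2 change between aged+Ri and aged was 0.44 ± 0.27 (adjusted p = 0.677).

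By edgeR, Ctsc was the 1 lysosomal gene that passed in any comparison. It encodes cathepsin C (dipeptidyl peptidase I), known for activating the granule serine proteases of neutrophils, mast cells and cytotoxic lymphocytes (chr7:88278085-88310888, plus strand). Ctsc had 446, 274 and 386 CPM in aged+Ri, 176, 259 and 215 CPM in aged and 142, 60.8 and 63.4 CPM in young. The 3 groups did not overlap, with aged+Ri highest and young lowest, and young 1 was above the other young libraries. Ctsc rose by a log2 change of 2.05 ± 0.38 in aged+Ri relative to young, at 369 ± 87.2 CPM against 88.9 ± 46.3 CPM (SD, n = 3 each; edgeR's adjusted p = 0.0247). The change was 0.77 ± 0.37 for aged+Ri against aged (adjusted p = 0.566) and 1.29 ± 0.37 for aged against young (adjusted p = 0.191), and neither passed.

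The Ctsc difference between aged+Ri and young lay within batch 2 as well, at 2.41 on the log2 scale. Without aged+Ri 1 it was 1.93 (adjusted p = 0.0814), without aged+Ri 3 it was 2.02 (adjusted p = 0.0932), and without young 2 it was 1.91 (adjusted p = 0.0605), so 3 of the 9 omissions ended the call without changing the direction. It also ended when the aged libraries were left out of the model (2.03, adjusted p = 0.0802). Neutrophil and monocyte markers summed to 98.8 to 186 CPM in aged+Ri and 1455 to 4114 CPM in young, with 1 of 16 tested higher and 15 lower in aged+Ri, and their part in the Ctsc level was not tested.

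Ctsa separated young from both other groups. It encodes cathepsin A, which also protects beta-galactosidase and sialidase in a complex (chr2:164832873-164841032, plus strand). Ctsa had 62.4, 88.2 and 66.7 CPM in aged+Ri, 59.7, 50.5 and 91.3 CPM in aged and 25.7, 21.3 and 26.6 CPM in young. The young libraries lay close together and the lowest library of the other groups was well above them. The log2 change was 1.45 ± 0.39 between aged and young (adjusted p = 0.176) and 1.56 ± 0.39 between aged+Ri and young (adjusted p = 0.0630, edgeR). DESeq2 put it past the threshold in both, with adjusted p of 0.00498 and 0.000832. Within batch 2 and batch 3 the difference between aged and young was 1.23 and 1.76 on the log2 scale. Exons of Ctsa overlap those of Pltp and Neurl2, which limits how its counts can be read without strand.

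Ctsl and Ctsb, broadly expressed cysteine proteases, had their highest mean in aged+Ri. Ctsl had 394, 426 and 369 CPM in aged+Ri and 286, 234 and 259.9 CPM in aged, with no overlap, and 402, 249.6 and 185 CPM in young, which spanned both (log2 change 0.61 ± 0.31 between aged+Ri and aged, adjusted p = 0.589). Ctsb had 206, 197 and 192 CPM in aged+Ri, 116, 86.5 and 202 CPM in aged and 110.2, 118 and 84.2 CPM in young. Its aged+Ri libraries were all above the young ones, with a log2 change of 0.93 ± 0.35 (adjusted p = 0.141), and aged 3 lay among them. Ctsd had 216, 598 and 312 CPM in aged+Ri, 568, 292 and 204 CPM in aged and 166, 403 and 299.6 CPM in young, so the spread within each group was wider than the difference between groups (log2 changes 0.08, 0.29 and 0.38 for aged+Ri against aged, aged against young and aged+Ri against young). Ctsz and Ctsh overlapped in every comparison, with log2 changes between aged and young of 0.63 and 0.74.

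Ctss, the cathepsin known for processing the invariant chain in antigen-presenting cells, was the cathepsin with its lowest mean in aged+Ri. It had 7.92, 11.2 and 6.89 CPM in aged+Ri, 1.60, 47.5 and 57.0 CPM in aged and 63.4, 21.1 and 159 CPM in young. The aged+Ri libraries were low and close together, aged 1 was lower still, and all young libraries were above them. On the log2 scale the change was −3.23 ± 1.01 between aged+Ri and young (adjusted p = 0.102) and −2.03 ± 0.97 between aged+Ri and aged (adjusted p = 0.564, edgeR). The difference between aged+Ri and aged was 2.00 within batch 1 and −2.37 within batch 2, opposite in sign. Neutrophil and monocyte markers were also lower in aged+Ri than in young for 15 of 16 tested, with sums of 98.8 to 186 CPM against 1455 to 4114 CPM. Within aged 1, 2 and 3 the sum was 998, 715 and 10910 CPM, where Ctss had 1.60, 47.5 and 57.0 CPM. Macrophage and dendritic cell markers summed to 157, 496 and 1286 CPM in those aged libraries. Their sum was 197, 194 and 272 CPM in aged+Ri and 174, 102 and 221 CPM in young. Of these markers, 8 of 13 tested were lower and 5 higher in aged+Ri than in young. Cd74, the invariant chain itself, had 60.9, 106 and 84.2 CPM in aged+Ri, 22.4, 271 and 705 CPM in aged and 98.4, 15.5 and 21.6 CPM in young. Their part in the Ctss level was not tested.

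**Figure D4:**
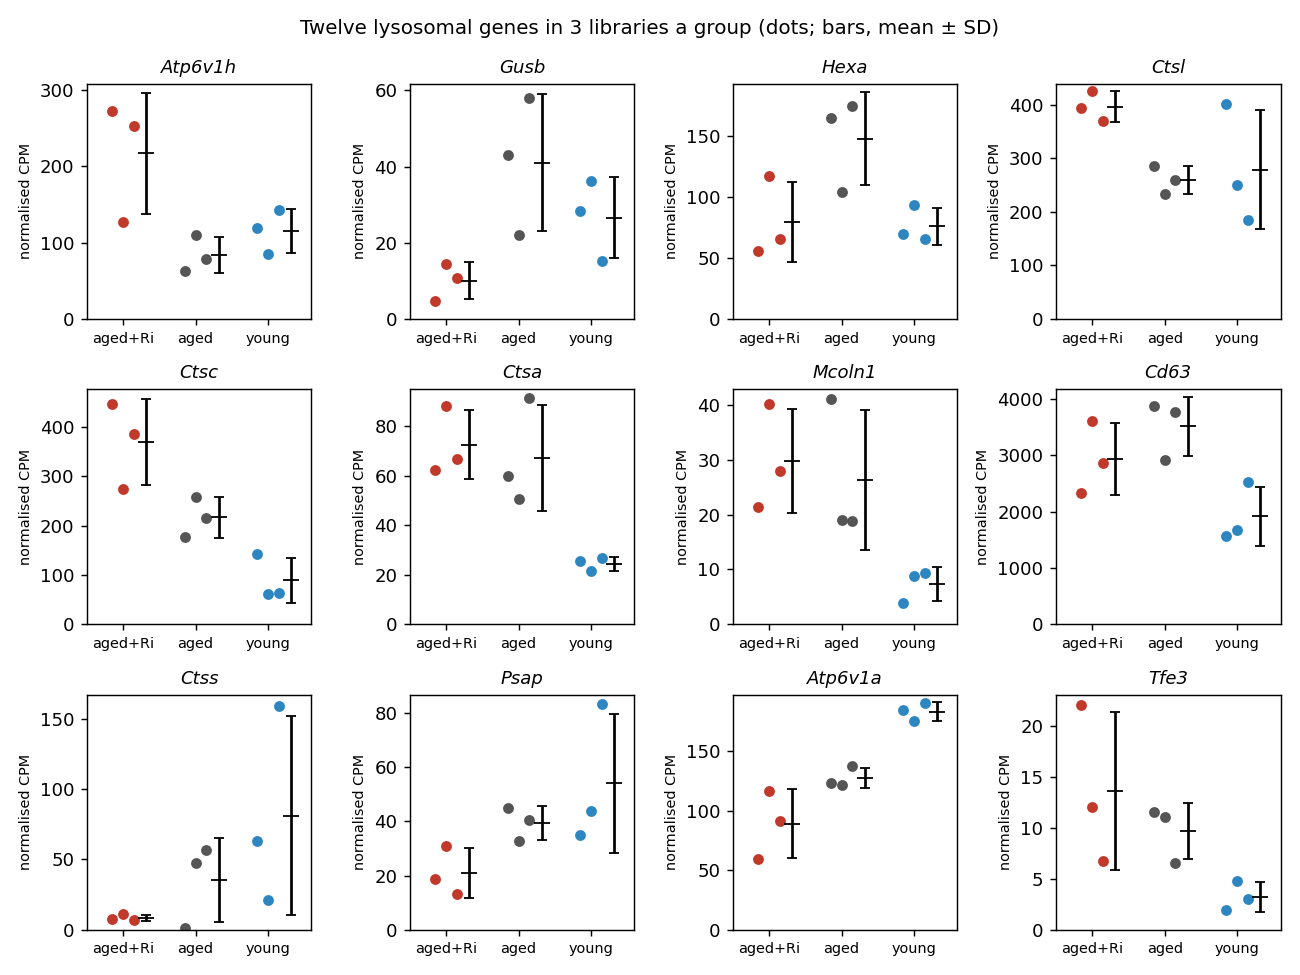
Normalised CPM of 12 lysosomal genes in each library, with a panel a gene, aged+Ri, aged and young from left to right, a dot for each library and bars at the mean ± SD (n = 3). Ctsc separates all 3 groups, Ctsa and Mcoln1 separate young from the rest, and Gusb and Atp6v1h separate aged+Ri from aged.

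Among the other luminal hydrolases, Gusb (beta-glucuronidase) had the smallest p between aged+Ri and aged (chr5:129989011-130003049, minus strand). It had 4.75, 14.3 and 10.8 CPM in aged+Ri, against 43.1, 22.1 and 58.0 CPM in aged. Each aged+Ri library was below each aged one, and also below the young libraries at 28.2, 36.3 and 15.3 CPM. The fitted log2 change was −2.04 ± 0.62 between aged+Ri and aged, at 9.97 ± 4.85 CPM against 41.1 ± 18.0 CPM (adjusted p = 0.388 by edgeR and 0.0248 by DESeq2). Within batch 1 it was −3.06 and within batch 2 it was −0.80.

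Hexa, the alpha chain of beta-hexosaminidase, had 55.7, 117 and 65.8 CPM in aged+Ri, 165, 104 and 174 CPM in aged and 69.5, 93.4 and 65.1 CPM in young. The aged libraries were all above the young ones, while aged+Ri overlapped both. The model gave a log2 change of 0.96 ± 0.38 between aged and young and −0.89 ± 0.38 between aged+Ri and aged (adjusted p = 0.252 and 0.494, edgeR). Gaa, which breaks down lysosomal glycogen, had 21.0, 52.5 and 28.1 CPM in aged+Ri, 86.8, 48.1 and 59.9 CPM in aged and 46.9, 49.8 and 16.7 CPM in young. Its aged+Ri 2 library lay within the aged range (log2 change −0.94 ± 0.52 between aged+Ri and aged, adjusted p = 0.630). Neu1, the lysosomal sialidase, had 21.2, 20.2 and 32.0 CPM in aged+Ri, 36.7, 23.2 and 58.1 CPM in aged and 4.85, 3.24 and 28.3 CPM in young, where young 3 stood apart. Its log2 change between aged and young was 1.70 ± 0.76 (adjusted p = 0.295), and without young 3 it was 3.29 (adjusted p = 0.0478).

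Asah1, acid ceramidase, was highest in aged+Ri. It had 327, 321 and 362 CPM in aged+Ri, 145, 238 and 247 CPM in aged and 129.6, 148 and 284 CPM in young. All aged+Ri libraries were above those of the other groups, with a log2 change of 0.68 ± 0.35 against aged and 0.85 ± 0.35 against young (adjusted p = 0.590 and 0.170, edgeR). Lipa, the acid lipase, had 63.8 ± 18.6 CPM in aged+Ri, 50.5 ± 26.7 CPM in aged and 35.0 ± 9.82 CPM in young, and Tpp1, a peptidase, had 67.5 ± 16.9, 91.6 ± 19.8 and 108 ± 69.0 CPM in those groups. Gla, alpha-galactosidase A, and Glb1, beta-galactosidase, each had 1 high young library: Gla had 0.344, 0.179 and 57.6 CPM in young and Glb1 had 76.9, 11.4 and 8.72 CPM. Gla also ranged from 0.0691 to 19.3 CPM among aged+Ri libraries. The median log2 change of the 9 hydrolases was −0.44 between aged+Ri and aged and 0.53 between aged and young, comparisons that share the aged libraries, against −0.06 and −0.13 for all genes tested.

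Psap and Npc2 are soluble proteins that present lipids to the hydrolases or carry them out. Psap, the precursor of the saposins, had 18.9, 31.0 and 13.1 CPM in aged+Ri, 45.1, 32.6 and 40.6 CPM in aged and 35.2, 43.8 and 83.2 CPM in young. The aged+Ri libraries were below all others. The log2 change was −0.91 ± 0.49 between aged+Ri and aged (adjusted p = 0.618) and −1.36 ± 0.50 between aged+Ri and young (adjusted p = 0.135). Npc2, a cholesterol carrier, had 162 ± 50.3 CPM in aged+Ri, 222 ± 17.9 CPM in aged and 156 ± 77.0 CPM in young, with overlap in each comparison.

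Of the membrane proteins, Mcoln1 and Cd63 separated aged from young. Mcoln1 encodes the TRPML1 channel, which releases calcium from lysosomes (chr8:3500457-3515232, plus strand). It had 21.4, 40.1 and 27.9 CPM in aged+Ri, 41.0, 19.0 and 18.8 CPM in aged and 3.802, 8.83 and 9.44 CPM in young. No young library came near those of the other groups, and aged 1 was above the other aged ones. On the log2 scale the change was 1.84 ± 0.62 between aged and young and 2.02 ± 0.62 between aged+Ri and young (adjusted p = 0.213 and 0.0967 by edgeR, 0.0295 and 0.006 by DESeq2). Within batches 2 and 3 the difference between aged and young was 1.07 and 0.96. Cd63 had 2340, 3605 and 2865 CPM in aged+Ri, 3872, 2914 and 3766 CPM in aged and 1565, 1677 and 2521 CPM in young (chr10:128900989-128912822, plus strand). Every aged library was above every young one, while aged+Ri 1 fell within the young range (log2 change 0.87 ± 0.27 between aged and young, adjusted p = 0.201).

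Lamp2, which also serves chaperone-mediated autophagy, had 339.8, 415 and 389.5 CPM in aged+Ri, above 202, 293 and 291 CPM in aged and 275, 232 and 332 CPM in young. The gap to the highest library of either other group was small. The fitted log2 change was 0.54 ± 0.28 between aged+Ri and aged (adjusted p = 0.592). Lamp1 had 135, 157 and 179.9 CPM in aged+Ri, 132, 101 and 188 CPM in aged and 18.4, 80.7 and 135 CPM in young, with young 1 far below every other library (log2 change 1.02 ± 0.53 between aged+Ri and young, adjusted p = 0.268). Scarb2, the receptor that carries beta-glucocerebrosidase to lysosomes, had 61.9 ± 12.6 CPM in aged+Ri, 61.0 ± 16.9 CPM in aged and 104 ± 34.6 CPM in young. Npc1, which exports cholesterol across the membrane, had 22.4 ± 2.25, 22.3 ± 8.67 and 34.8 ± 12.4 CPM in those groups. Both overlapped in every comparison.

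The transcription factors had low levels. Tfe3 had 22.0, 12.02 and 6.72 CPM in aged+Ri, 11.5, 11 and 6.55 CPM in aged and 1.92, 4.79 and 2.99 CPM in young. Every young library was below every other library, and aged+Ri 1 was the highest. The model gave a log2 change of 1.58 ± 0.83 between aged and young (adjusted p = 0.357) and 2.07 ± 0.85 between aged+Ri and young (adjusted p = 0.170, edgeR). Tfeb had 1.179, 5.89 and 1.86 CPM in aged+Ri, 6.20, 0.524 and 1.69 CPM in aged and 0.566, 11.96 and 1.60 CPM in young, with 1 high library in each group. Both factors are controlled largely by where the protein sits in the cell, which RNA levels do not show.

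**Figure D5:**
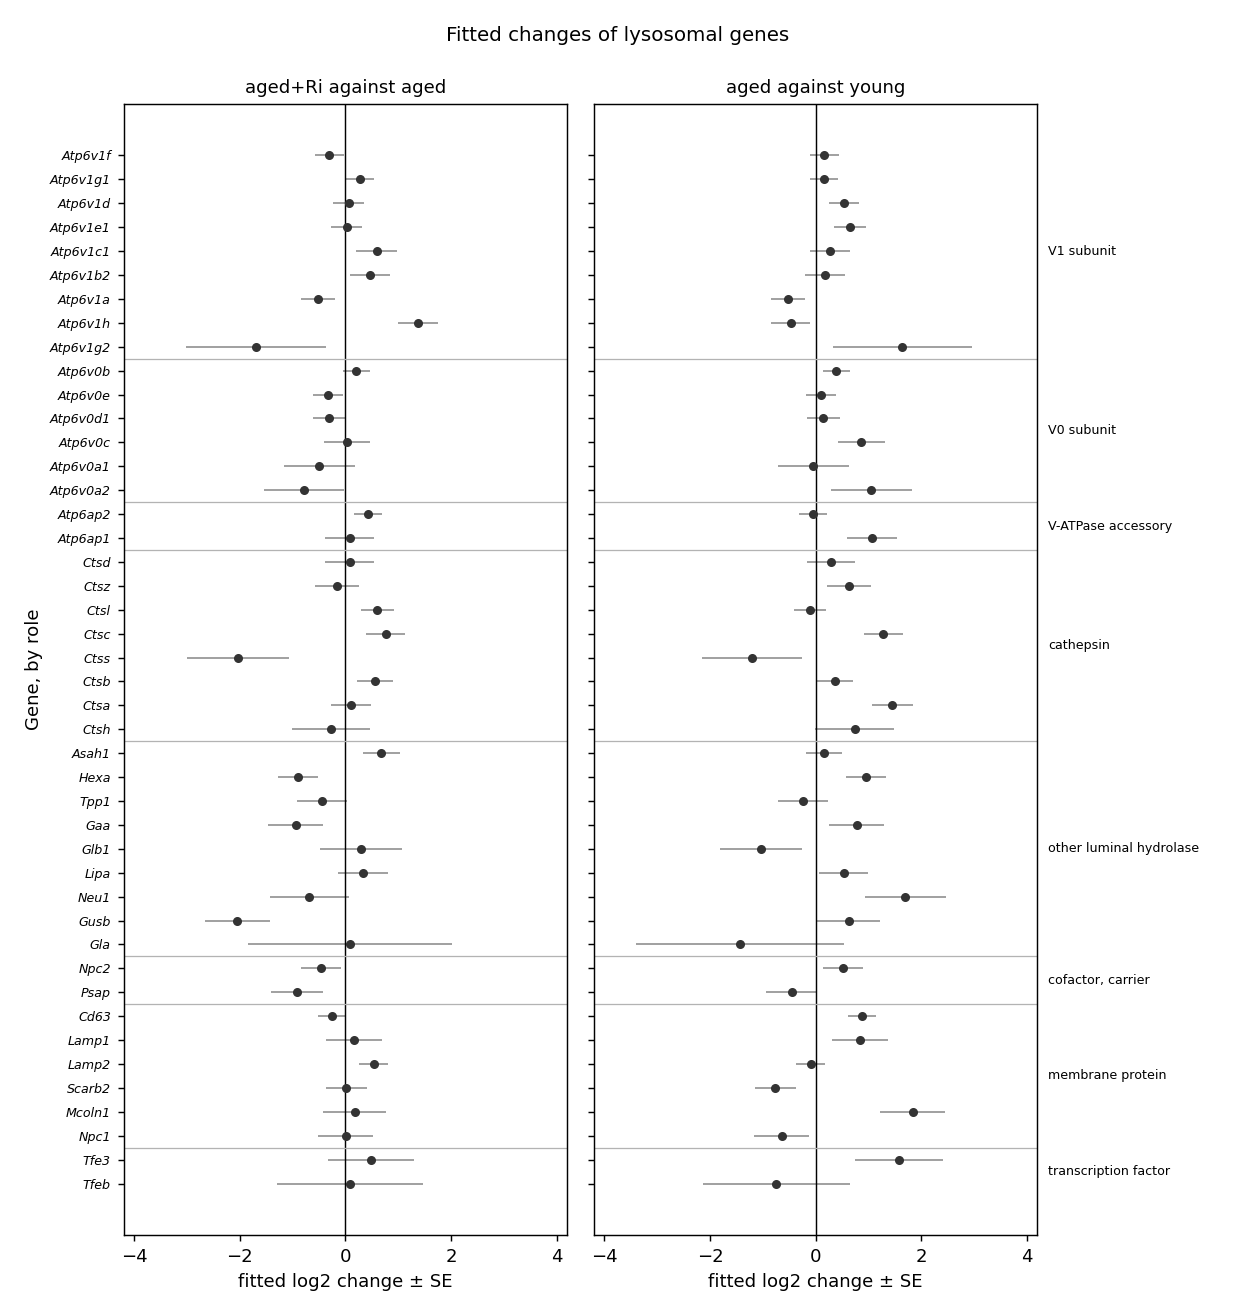
Fitted log2 change ± SE of 44 tested lysosomal genes between aged+Ri and aged (left) and between aged and young (right), by role down the page. Atp6v1b1, Atp6v0a4 and Atp6v0e2, with few counts, are not drawn. Atp6v1h lies farthest to the right and Gusb farthest to the left among those whose groups do not overlap in the left panel, and Mcoln1, Ctsa and Ctsc lie to the right in the right panel.

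Genes with an E-box in the searched window were set beside those without one, as a description. Of the 38 tested genes with a matched promoter, 10 had an E-box and a median log2 change of 0.14 between aged+Ri and aged, and 28 had none and a median of −0.21. Between aged and young both medians were 0.34, and between aged+Ri and young they were 0.44 and 0.01. Between aged+Ri and aged, changes ranged from −0.94 (Gaa) to 0.61 (Ctsl) with an E-box and from −4.76 to 1.63 without. They were above 0 for 8 of the 10 and 13 of the 28, against 47.2% of all genes, so not all E-box genes changed in the same direction. Between aged and young the counts were 6 and 17 (45.3% of all genes), and between aged+Ri and young 6 and 14 (42.6%).

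The rest of the pathway was followed through 6 lists, with 124 genes that are not among the 52 and were tested. None of them passed in any comparison by edgeR, beside 0%, 0.0331% and 1.45% of all genes. In 37 further luminal enzymes and activators the median log2 change was −0.44 between aged+Ri and aged, 0.20 between aged and young and −0.10 between aged+Ri and young. In the same order it was 0.05, 0.06 and 0.14 for 23 further membrane proteins, −0.37, 0.07 and −0.12 for 19 genes of delivery to lysosomes, and −0.01, 0.17 and −0.32 for 23 genes that control TFEB and TFE3 at the lysosome. It was 0.22, −0.23 and 0.27 for 12 reported TFEB or TFE3 targets outside the lysosome, and −0.06, 0.32 and 0.08 for 10 genes of V-ATPase assembly.

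At an unadjusted p of 0.05, 0 of the 37 luminal enzymes were higher and 2 lower in aged+Ri than in aged (4.24% and 4.89% of all genes). In aged against young 2 were higher and 0 lower (6.09% and 10.1% of all genes), and in aged+Ri against young 2 were higher and 3 lower (9.06% and 14.4%). Aga, which cleaves asparagine-linked sugars, had 26.8, 71.2 and 54.3 CPM in aged+Ri, 89.5, 115 and 119 CPM in aged and 54.3, 43.6 and 73.6 CPM in young. Its aged libraries were above all others, with a log2 change of −1.09 between aged+Ri and aged and 0.92 between aged and young (adjusted p = 0.463 and 0.292).

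Of the genes that control TFEB and TFE3, Lamtor4, a Ragulator subunit, had 37.0, 63.8 and 48.4 CPM in aged+Ri, against 115, 120 and 150 CPM in aged, with no overlap (log2 change −1.37, adjusted p = 0.388). Rragc, a Rag GTPase that recruits TFEB and TFE3 to lysosomes, had 102, 87.8 and 90.8 CPM in aged+Ri, 57.0, 75.9 and 58.6 CPM in aged and 35.9, 40.6 and 35.7 CPM in young. The 3 groups did not overlap, with log2 changes of 0.55, 0.77 and 1.32 for aged+Ri against aged, aged against young and aged+Ri against young (adjusted p = 0.677, 0.284 and 0.0687, edgeR). Fnip1, a partner of folliculin, had 161, 94.9 and 90.1 CPM in aged+Ri, 108, 121 and 75.5 CPM in aged and 247, 342 and 214 CPM in young. Its young libraries were above all others (log2 change −1.40 between aged and young, adjusted p = 0.173).

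Sqstm1, an autophagy receptor reported as a TFEB target, had 1141, 962 and 532 CPM in aged+Ri, 502, 333 and 296 CPM in aged and 289, 500 and 490 CPM in young. The aged+Ri libraries were above all others (log2 change 1.22 between aged+Ri and aged, adjusted p = 0.346). Cd68, a lysosomal glycoprotein that also marks macrophages, had 58.1, 27.6 and 98.4 CPM in aged+Ri, 57.1, 51.9 and 58.7 CPM in aged and 5.20, 24.1 and 11.03 CPM in young. Every young library was below the rest (log2 change 2.06 between aged and young, adjusted p = 0.191). Of the 13 tested macrophage and dendritic cell markers, Cd68 among them, 8 were higher in aged than in young, with a median log2 change of 1.36, and their part in the Cd68 level was not tested. Rogdi, reported as part of a V-ATPase assembly complex, had 1.01, 9.61 and 5.17 CPM in aged+Ri, 9.21, 19.7 and 26.7 CPM in aged and 0.263, 1.35 and 0.456 CPM in young. Its aged libraries were all above the young ones (log2 change 4.74 between aged and young, adjusted p = 0.173).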

How the data were processed

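RNA sequencing libraries of 3 groups (aged+Ri, aged and young, 3 each) were prepared, per the labels' protocols, with the SMART-Seq v4 and Nextera XT kits. The table deposited by the authors holds estimated counts per gene: 71.6 to 80.9% of a library's values are whole (within 0.005), and 22 of the 52 lysosomal genes are whole in every library. Fractional values and shared exons, present for 18 of the 52, mean that reads may be split or shared with other genes, and strand use is not stated. The submitters' processing notes name cutadapt 1.18, STAR 2.7.0, SAMtools 1.14, R 4.2.0, featureCounts, without a version, and the build GRCm38.

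Estimated counts were rounded, filtered with edgeR's filterByExpr (15127 genes left) and scaled by TMM. A mean for each group was fitted by quasi-likelihood over the 9 libraries together (edgeR 4.0.16, robust estimation, 6 residual degrees of freedom, R 4.3.3), with two-sided tests, Benjamini-Hochberg adjustment over all genes tested and a threshold of 0.05. Log2 changes are given with SE, CPM with SD. Within-batch differences use log2(CPM + 0.5). Levels per kb use the exon union of GENCODE M21 (GRCm38), which matched all 52 genes. Ratios of totals with 0 to 3 counts have exact Poisson 95% intervals or a floor of 3 counts over the group, and these cover counting error only.

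The labels give a sequencing batch: aged+Ri 1 in batch 1, aged+Ri 2 and 3 in batch 2, aged 1, 2 and 3 in batches 1, 2 and 3, and young 1 in batches 1 and 3, young 2 in batch 2 and young 3 in batch 3. The labels call the libraries biological replicates without the number of mice, so p-values measure the spread between these samples. Within each group, the libraries differed from each other by more than sampling noise.

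The genes and lists were chosen with earlier results of these data known. Named were the 12 tested genes with the smallest p in each comparison and Tfeb, Tfe3, Lamp1, Ctsd and Atp6v1a, other members being given by value for completeness, and up to 4 genes of a list by smallest p. A gene that the rule selects from a list is not reported here. The 6 pathway lists and 9 marker lists (LT-HSC, progenitor, neutrophil and monocyte, macrophage and dendritic cell, mast cell and basophil, T, NK and B cell, megakaryocyte, erythroid, and mitochondrially encoded genes) are described by counts and medians. Alternatives were DESeq2 1.42.0 and its size factors, limma-voom (limma 3.58.1) with sample weights, edgeR's newer method, no filter, a stricter filter, only the 2 groups compared, a replicate block, batch as a covariate, young 1 as the only young library, and each library left out in turn. The scripts were tested on simulated data with known changes, with a pass required only at an assumed spread between libraries. The share of changes recovered at the spread fitted to these data is not given here.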

Additional observations from a re-analysis of the deposited data

How the results depend on the processing

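The number of lysosomal genes past the threshold was 0 for aged+Ri against aged, 0 for aged against young and 1 for aged+Ri against young. In that order DESeq2 gave 1, 2 and 8. For aged+Ri against young, limma-voom gave 2 and a model of only the 2 groups gave 0. With young 1 as the only young library, aged against young gave 1 and aged+Ri against young gave 2, but a group of 1 library has no spread of its own: it is assumed to vary like the others, and these calls describe that library. Leaving out each library in turn gave 0 to 1 for aged against young and 0 to 2 for aged+Ri against young. Over all genes the counts were 0, 5 and 219 in that order, with 321, 744 and 1829 by DESeq2, 55, 18 and 644 by limma-voom, 4, 21 and 425 by edgeR's newer method, and 2, 1 and 57 with only the 2 groups. Without a filter they were 11 and 20 for aged+Ri against aged and aged against young, with batch as a covariate 16 for aged+Ri against aged, and when young 1 alone stood for young, 358 for aged against young and 735 for aged+Ri against young, under the same assumption. Leaving out each library gave 0 to 6, 2 to 80 and 18 to 532.

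The median log2 change of the lysosomal genes was 0.06, 0.28 and 0.38 in that order. For aged+Ri against aged it took both signs, at −0.10 to 0.089 with a library left out and −0.19 within batch 1. For aged against young it was 0.44 with batch as a covariate, 0.37 with young 1 as the only young library, 0.48 within batch 3 and 0.21 to 0.48 with a library left out. For aged+Ri against young it was 0.23 without a filter, 0.63 with batch as a covariate, 0.62 within batch 2 and 0.22 to 0.52 with a library left out. The causes were not tested.

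Of 664 values of named genes under an alternative, 645 kept their direction and side of the threshold, and 0 changed sign. Another 14 kept the direction and passed, among them Atp6v1a, Atp6v1b1, Ctss, Psap and Tfe3 between aged+Ri and young. The remaining 5 kept the direction and no longer passed. All 5 were Ctsc between aged+Ri and young, 4 given in the report and 1 with young 1 alone for young (1.43, adjusted p = 0.0852 by edgeR). Same-numbered libraries did not deviate together, with correlations of −0.0718 to 0.139, so the numbers are not taken to pair samples. With a replicate block, 2, 6 and 226 genes and 0, 0 and 1 lysosomal genes passed.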
